A study of Drosophila melanogaster with 136 samples.

Results

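The zinc transporters of the ZnT family in Drosophila melanogaster were followed through dissected tissues, whole animals and a cell line. The 7 genes ZnT33D, ZnT35C, ZnT41F, ZnT49B, ZnT63C, ZnT77C and ZnT86D were chosen by their symbols in the array annotation, among 11982 genes that had a probe set of their own. Each was measured by 1 probe set, so no second probe set of a gene was there to compare with it. The annotation gave them as CG31860 (ZnT33D), CG3994 (ZnT35C), CG11163 (ZnT41F), CG8632 (ZnT49B), CG17723 (ZnT63C), CG5130 (ZnT77C) and CG6672 (ZnT86D). All 7 are described in every group.

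ZnT proteins, the SLC30 family, carry zinc out of the cytosol, either across the plasma membrane or into vesicles and organelles, while proteins of the Zip family carry it the opposite way. The fly stores zinc in granules of the Malpighian tubule, its renal organ, and absorbs and releases it through the gut. ZnT63C and ZnT77C belong to the plasma membrane type, ZnT63C being the exporter known from the gut, ZnT35C loads zinc into vesicles of the tubule, ZnT33D and ZnT41F group with the vesicular transporters by sequence, and ZnT86D works at the Golgi.

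RNA from wild-type Canton-S animals, of which 12 to 100 per sex or 30 to 100 larvae were pooled for an array, was hybridised to Affymetrix arrays in 34 groups of 4. Dissected groups came from feeding larvae of the last instar (tubule, midgut, hindgut, salivary gland, fat body, trachea, carcass and central nervous system, CNS), from wandering larvae of that instar (tubule and fat body), and from adults aged 7 days. The adult groups were midgut, hindgut, crop, salivary gland, fat body, heart, trachea, carcass, wing, thoracic muscle, head, eye, brain, thoracicoabdominal ganglion, testis, accessory gland, ejaculatory duct, ovary, and spermatheca of virgin females, of mated females and of mated females in a redone set. S2 cells, an embryonic Drosophila line, were taken at passage 5, and whole feeding larvae and whole flies were the animals that the tissues were set against. Adult tubule was not analysed here. Per the labels the heart came with the fat body that adheres to it, the spermatheca with the fat body around it, and the eye with its cuticle. The accessory gland is labelled as taken from females as well as males, while the markers read for it below are those of the male gland. RNA had 2 rounds of amplification in the first mated and virgin spermatheca and in 1 redone array, and another labelling kit in larval trachea, eye and heart, so amplification and tissue cannot be told apart there. The titles of 27 groups call their arrays biological replicates and those of 7 do not, so p-values speak of the spread among these arrays, which may be technical.

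Signals are in the authors' intensity units, in which the middle 96% of the probe sets of every array averaged between 100.002 and 100.006. A signal of 100 is thus an average one, although array medians were only 4.84 to 28.8. Fold changes are on the scale log2(signal + 10), which understates the changes of dim genes, and a gene was called when limma's Benjamini-Hochberg adjusted p was below 0.05 and the change at least 2-fold. The pseudocounts 2.00 and 40.0 and quantile normalization were run beside these settings. A probe set was tested where the mean of at least 1 of the 2 groups reached the array's 40th percentile, a signal of 3.07 to 14.4. That rule left 21 of the 34 groups with ZnT33D and 29 with ZnT35C at the percentile, and all 34 with each of the other 5 genes. In the 50 comparisons 347 member tests were made, and 3 of ZnT33D were not.

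Of all arrays, 6 correlated best with an array of another group. Thoracic muscle replicate 4 correlated at r = 0.976 with an array of the redone spermatheca, against at most 0.799 with its own group. Redone spermatheca replicate 2 correlated at 0.943 with thoracic muscle, against at most 0.774 with its own group. Of the other 4, 3 lie in the same groups and 1 is feeding larval fat body replicate 4, nearest to wandering fat body (r = 0.952). Fold changes whose call rests on the first pair of arrays or on the fat body array are given with and without them. Group means count all arrays. In the feeding larval tubule the markers Lkr, Oatp58Db and NaPi-T averaged 282, 2153 and 1114, and Irk2, fixed as a tubule marker, only 10.2, against 3856 in larval hindgut. The accessory gland markers SP, Acp26Aa, Acp36DE and antr summed to 38132 to 42364 in that group.

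The family divided into genes that were bright in a few tissues and genes present throughout. Group means of ZnT35C lay between 4.29 in adult eye and 1961 in wandering larval tubule, and those of ZnT33D between 1.57 in larval CNS and 147 in testis. Both low ends were below the 40th percentile of their arrays, so no fold is given for these genes. The means of ZnT77C spanned 48.0-fold, ZnT63C 15.7-fold, ZnT41F 13.0-fold and ZnT86D 11-fold. These means count all arrays, and without the doubtful thoracic muscle array the low end of ZnT86D would lie in muscle. ZnT49B varied least, by 4.88-fold, and was the only member whose mean reached the array average in all 34 groups, against 30 for ZnT86D, 28 for ZnT63C, 11 for ZnT41F, 9 for ZnT77C, 6 for ZnT35C and 1 for ZnT33D.

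**Figure D1:**
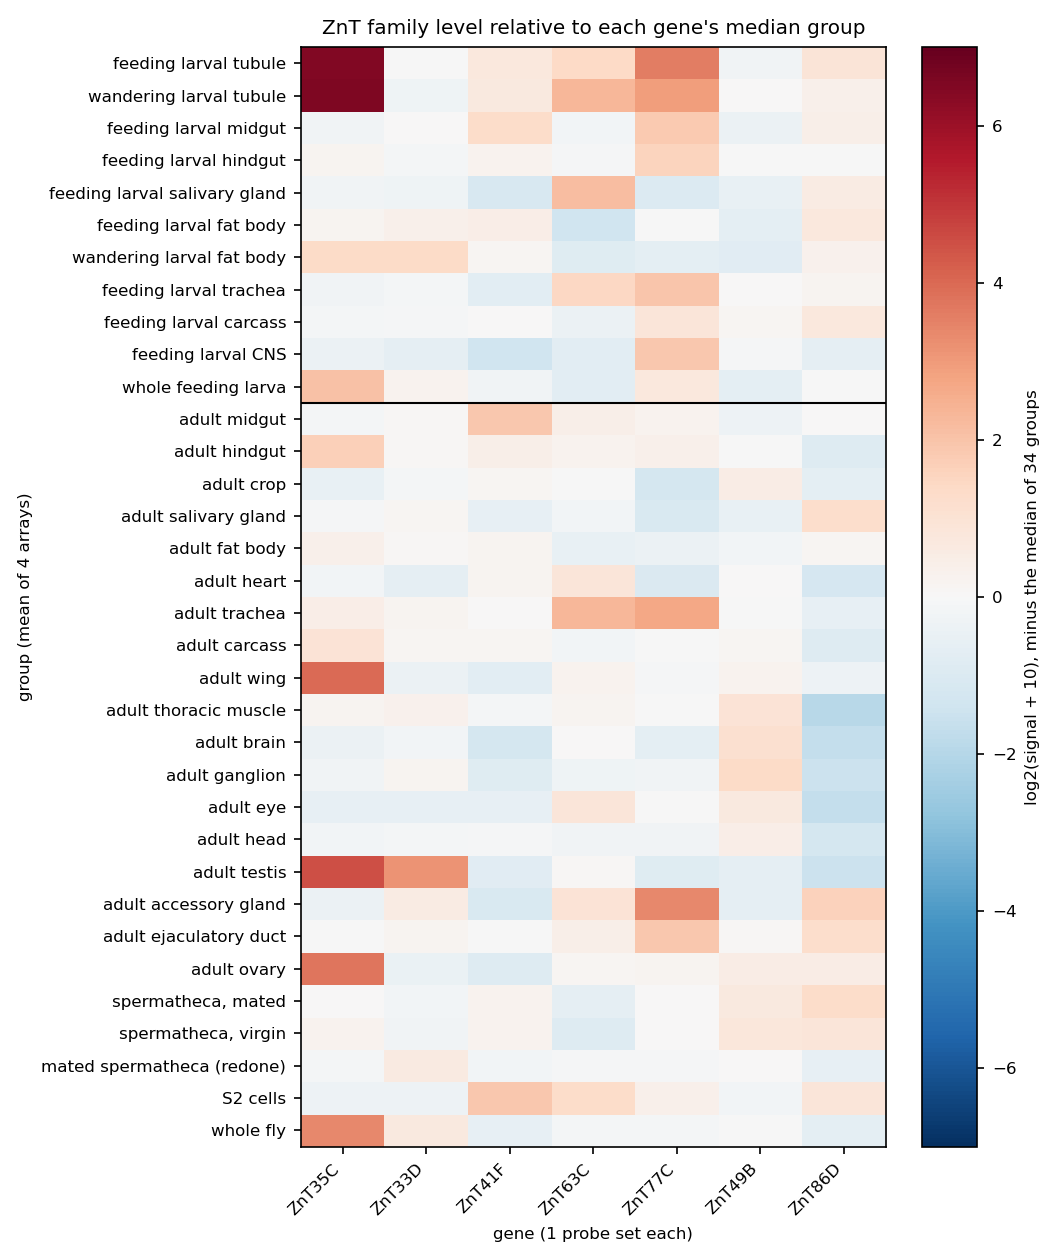
Mean log2(signal + 10) of each ZnT gene (columns) in each of the 34 groups (rows, 4 arrays each), less that gene's median over the groups; red is above and blue below the median. ZnT35C stands highest in larval tubule, testis, wing and ovary, ZnT33D in testis, and ZnT77C in tubule, accessory gland and trachea.

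Against the whole fly, the 7 genes in 22 groups gave 154 tests, of which 19 were called higher and 25 lower. Over all probe sets tested in these comparisons 13.0% were called higher and 30.0% lower, so the members' share of higher calls lies near the background and their share of lower calls below it. Of the 25 lower calls, 19 were of ZnT35C, 5 of ZnT33D and 1 of ZnT77C. The split turned with the scaling, since quantile normalization gave 47 higher and 20 lower. Of the calls made over all probe sets, 51.0% were higher under quantile normalization, against 30.2%. The median log2 fold over all probe sets, which lay between -0.65 and -0.04, then came to lie between -0.17 and 0.42. Against the whole feeding larva, 56 tests gave 9 higher and 9 lower calls, 7 of the lower ones of ZnT35C, where 11.9% and 19.9% of all tests were called. Quantile normalization gave 10 and 10 there, with 51.2% of all calls higher, against 37.3%. In these pooled tissue extracts, fewer cells of a type and less RNA per cell cannot be told apart.

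ZnT35C, the transporter that loads vesicles of the tubule, was brightest in larval tubule by a wide margin. Its signal was 1697, 2273, 1854 and 2019 in the 4 wandering tubule arrays and 1708, 1985, 2073 and 1753 in the 4 feeding tubule arrays. All 8 tubule arrays lay above every other array of the series. Testis came next with 486, 535, 458 and 430, which averaged 477 ± 44.6 (SD, n = 4). Wing had 329, 280, 295 and 388, and ovary 279, 277, 279 and 266. Tubule, testis, wing and ovary did not overlap one another, whereas ovary overlapped the whole fly, at 212, 268, 215 and 147. The whole larva, at 76.7 ± 2.21, lay below every whole fly array.

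Below the whole animals the ZnT35C order was led by adult hindgut (59.0 ± 19.5), wandering fat body (50.9 ± 39.9) and adult carcass (30.5 ± 6.20; SD, n = 4 each). The other 24 groups averaged 23.6 in adult trachea or less, and each of them overlapped the next one down. Midgut was among these dim groups, at 7.58 ± 2.19 in feeding larvae and 9.81 ± 7.87 in adults. Against the whole fly, ZnT35C was higher in testis by a log2 fold of 1.17 ± 0.16 (SE, adjusted p = 2.6e-05), and uncalled in wing (0.61) and ovary (0.40). It was lower in the other 19 groups, S2 cells among them, by -1.69 in hindgut to -3.94 in eye, and in 5 of these 19 its mean did not reach the 40th percentile. With a 40.0 pseudocount the eye value was -2.48, with 2.00 it was -5.17. Adult trachea rested partly on 1 array of 57.1 beside 3 of 10.4 to 14.2, and its log2 fold of -2.87 was -3.27 without that array.

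**Figure D2:**
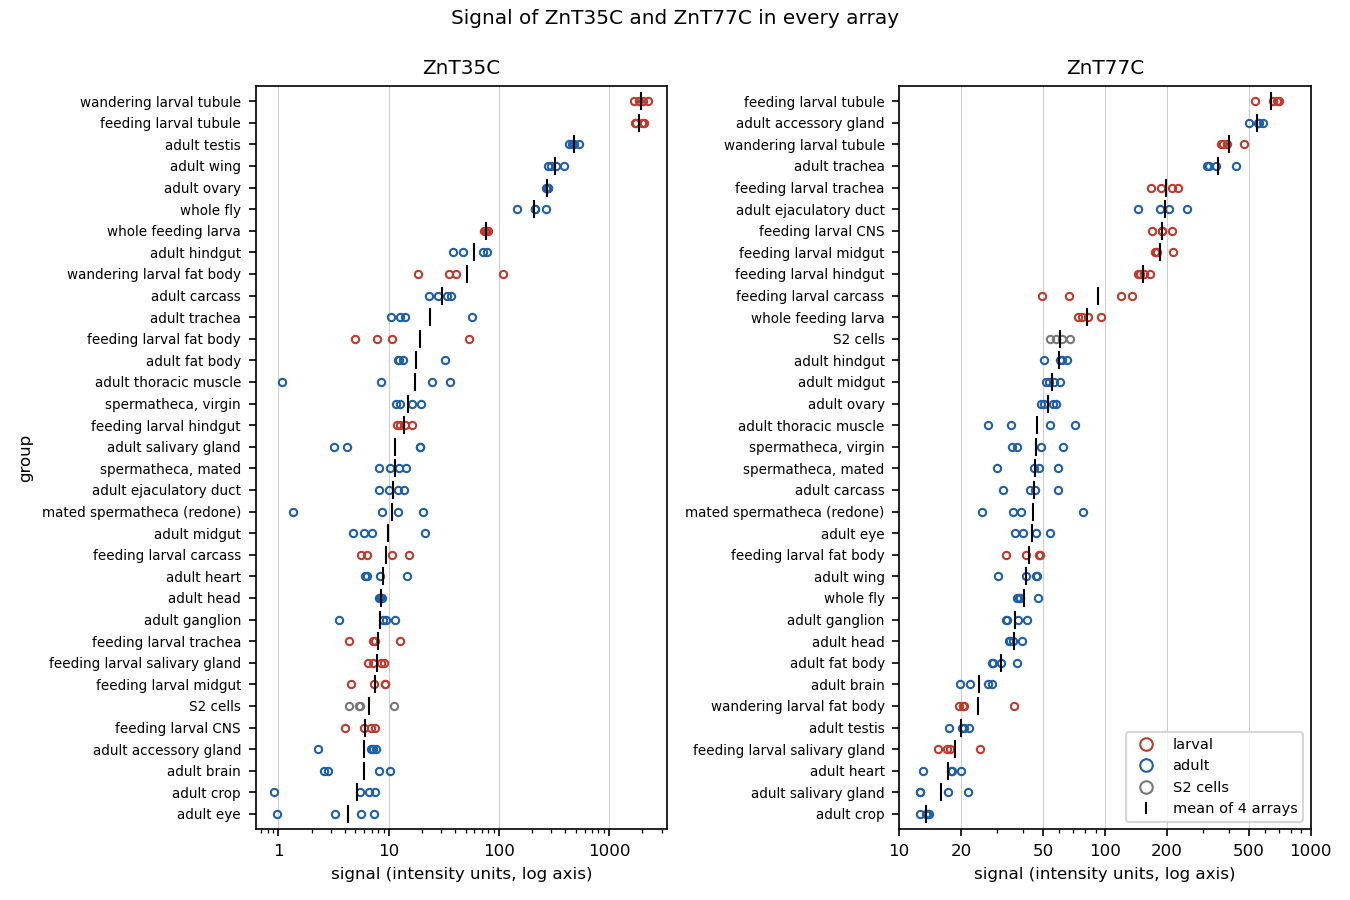
Signal (intensity units, log axis) of ZnT35C and ZnT77C in every array, one row per group in order of the mean; circles are single arrays, red larval, blue adult and grey S2 cells, and the bar is the mean of 4. The 8 larval tubule arrays of ZnT35C, all at 1697 or more, stand apart from the rest, while the tubule arrays of ZnT77C lie beside those of the accessory gland.

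Testis markers were read beside ZnT35C in the fat bodies. In the 4 wandering fat body arrays ZnT35C was 18.5, 109, 41.1 and 35.0, and the summed signal of the 5 testis markers fzo, bol, Mst87F, dj and twe was 262, 1837, 807 and 566. In the 4 feeding fat body arrays ZnT35C was 10.7, 7.82, 4.94 and 53.4, and the testis markers summed to 40.6, 26.2, 59.1 and 598. The array with the most testis marker signal thus had the most ZnT35C in either group, while the other 3 feeding arrays did not share 1 order. Larval testes lie in the fat body. The part of testis RNA in these levels was not tested. Tubule markers summed to 13.8 to 47.8 in wandering and 16.6 to 36.2 in feeding fat body. In larval tubule itself the testis markers summed to 23.4 to 31.5 in wandering and 17.1 to 35.4 in feeding arrays.

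ZnT33D, grouped with the vesicular transporters, was far brighter in testis than elsewhere. Testis arrays had 154, 141, 146 and 148, every one above all other arrays of the series. Wandering fat body followed with 20.6, 75.2, 31.4 and 28.5, its second array being the one richest in testis markers, and the whole fly had 16.9, 21.4, 22.5 and 14.3. The remaining 31 groups averaged 17.3 or less, down to 1.57 in larval CNS, and only the step below testis was free of overlap among the 33 neighbouring pairs. Testis exceeded the whole fly by a log2 fold of 2.46 ± 0.11 (SE, adjusted p = 1.5e-09). ZnT33D was also called lower in heart, wing, eye, ovary and S2 cells, by -1.01 to -1.29, but its mean reached the 40th percentile in 0 of these 5 groups. All 5 calls ended under quantile normalization, where the log2 folds were -0.19 to -0.59, and with a 40.0 pseudocount, at -0.41 to -0.49. With a 2.00 pseudocount they were -1.74 to -2.54. That of wing ended, as near 0 as -0.96, without wing replicate 1 or 4 or whole fly replicate 3, and that of S2 cells, as near 0 as -0.93, without S2 replicate 2 or 3 or whole fly replicate 2 or 3.

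ZnT41F, the other gene grouped with the vesicular transporters, was highest in S2 cells and midgut. S2 cells had 336, 368, 358 and 331, and adult midgut had 353, 340, 331 and 334, so these groups overlapped. Larval midgut followed at 190, 243, 245 and 224, clear of adult midgut above it and of the tubules below it. Wandering tubule averaged 147 ± 6.18 and feeding tubule 152 ± 20.8, and they overlapped. Of the next groups, larval fat body averaged 122, adult hindgut 117, mated and virgin spermatheca 105 each, larval hindgut 103 and adult fat body 100.3.

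From larval fat body, which lay below every wandering tubule array, ZnT41F ran without a gap between neighbours through heart (99.9), adult carcass (98.3), wandering fat body (97.3), crop, larval carcass, adult trachea, ejaculatory duct, head, thoracic muscle and redone spermatheca (75.1) to the whole larva (70.7 ± 1.27). Below the whole larva lay adult salivary gland (55.9), the whole fly (55.8 ± 9.66), eye, wing, larval trachea, testis, ganglion, ovary, accessory gland (35.9), larval salivary gland (33.5), brain (30.8 ± 2.32) and larval CNS (26.8 ± 2.91). Nervous tissue was thus at the low end. It was higher in S2 cells (log2 fold 2.45 ± 0.11, SE, adjusted p = 8.2e-09) and adult midgut (2.42 ± 0.12, adjusted p = 1.3e-08) than in the whole fly. In larvae, midgut was higher (1.54 ± 0.10, adjusted p = 4.3e-07) and CNS lower (-1.13 ± 0.077, adjusted p = 1.3e-07) than the whole larva, CNS being uncalled at -0.73 with a 40.0 pseudocount.

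ZnT63C, the plasma membrane exporter known from the gut, was not highest in the gut here. Adult trachea had 775, 1223, 780 and 519, wandering tubule 829, 770, 865 and 753, and larval salivary gland 614, 705, 677 and 847. These 3 groups overlapped. Larval trachea (437 ± 73.2), feeding tubule (418 ± 38.2) and S2 cells (377 ± 22.4) formed a next set whose neighbours overlapped, all of them below the larval salivary gland. Accessory gland averaged 308 ± 8.95, heart 286 ± 59.6 and eye 282 ± 26.6.

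Among the other ZnT63C groups, no neighbours were apart until the last. Adult midgut averaged 204 ± 16.2, adult hindgut 181 ± 19.0, larval hindgut 141 ± 13.5 and larval midgut 130 ± 16.9, with the whole fly at 139 ± 16.2 and the whole larva at 85.9 ± 4.05. Ejaculatory duct (208), wing, thoracic muscle, ovary, testis, brain, crop and redone spermatheca (143) lay in the upper part of this range. Adult salivary gland (135), adult carcass, head, ganglion, larval carcass, adult fat body (105), mated spermatheca, larval CNS, wandering fat body (79.2) and virgin spermatheca (75.9) lay in the lower part, and larval fat body, at 52.3, 52.8, 57.5 and 47.6, was below all.

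Against the whole fly ZnT63C was higher in trachea (log2 fold 2.42 ± 0.24, SE, adjusted p = 1.4e-05), S2 cells (1.38 ± 0.098, adjusted p = 2.7e-07) and accessory gland (1.10 ± 0.11, adjusted p = 6.0e-06, uncalled at 0.96 with a 40.0 pseudocount). Against the whole larva it was higher in salivary gland (2.90 ± 0.11, adjusted p = 3.4e-09), trachea (2.21 ± 0.12, adjusted p = 4.1e-07) and tubule. The adult trachea arrays also carried fat body markers summing to 9443 to 14572, against 3519 to 4442 in the whole fly, and hemocyte markers summing to 2111 to 4127, against 349 to 497. The part of these cells in the trachea levels was not tested. In adult fat body itself ZnT63C was 105 ± 7.07.

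ZnT77C, of the same plasma membrane type, shared tubule and trachea with ZnT63C and was also bright in the accessory gland. Feeding tubule arrays had 656, 685, 702 and 535, and accessory gland arrays had 500, 558, 583 and 561, so the groups overlapped. Wandering tubule had 377, 393, 473 and 368, below all accessory gland arrays, and adult trachea had 347, 432, 322 and 314. Below a gap stood larval trachea (199 ± 26.1), ejaculatory duct (196 ± 44.5), larval CNS (190 ± 16.8) and larval midgut (186 ± 19.0), then larval hindgut (153 ± 9.55) and, after a further gap, larval carcass (92.9 ± 41.3) and the whole larva (82.2 ± 9.56).

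Of the 23 remaining ZnT77C groups, S2 cells were highest at 60.3, and the larval ones were fat body, wandering (24.2) and feeding (42.8), and salivary gland (18.7). They ran without a gap through adult hindgut (59.6), adult midgut (55.5), ovary (53.2), thoracic muscle, the 3 spermatheca groups (44.7 to 46.0), adult carcass, eye, wing, the whole fly (40.4 ± 4.70), ganglion (36.5), head, adult fat body, brain (24.3), testis (20.1), heart and adult salivary gland (16) to crop, at 13.4 ± 0.60. Compared with the whole fly it was higher in accessory gland (log2 fold 3.48 ± 0.11, SE, adjusted p = 1.1e-09), trachea (2.85 ± 0.15, adjusted p = 6.2e-07) and ejaculatory duct (2.01 ± 0.16, adjusted p = 6.8e-07). These were 4.43, 3.79 and 3.04 under quantile normalization. It was lower in crop (-1.10 ± 0.094, adjusted p = 1.7e-06), a call that ended at -0.05 under quantile normalization. Of the larval tissues, feeding tubule (2.83), trachea (1.18), CNS (1.12) and midgut (1.09) were higher and salivary gland (-1.69 ± 0.12, adjusted p = 5.0e-07) lower than the whole larva. The calls of trachea, CNS and midgut ended, at 0.96, 0.91 and 0.89, with a 40.0 pseudocount, as did that of CNS under quantile normalization, at 0.87.

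ZnT86D, the Golgi zinc transporter, was highest in secretory organs. Accessory gland had 649, 827, 807 and 868, mated spermatheca had 723, 615, 565 and 601, adult salivary gland had 480, 604, 625 and 721, and ejaculatory duct had 555, 529, 632 and 691. These 4 overlapped in turn. Feeding tubule followed at 498, 499, 475 and 446, below every ejaculatory duct array but overlapping adult salivary gland. S2 cells (468 ± 28.4), virgin spermatheca (459 ± 31.5), larval carcass (437 ± 85.3), larval fat body (427 ± 101), larval salivary gland (377 ± 74.2), ovary (365 ± 18.4), larval midgut (331 ± 30.4) and wandering tubule (321 ± 6.73) continued the order. At the other end, by means of all arrays, were head (103 ± 6.01) and, apart from it, ganglion (83.6), testis (83.1), brain (73.2) and eye (71.8). Thoracic muscle has no settled place in this order, since its mean rests on a doubtful array.

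Between these ends ZnT86D passed without a gap through wandering fat body (318), larval trachea, adult fat body (279), adult midgut (255), larval hindgut (247), the whole larva (244 ± 21.8), wing, adult trachea, larval CNS (161), the whole fly (154 ± 17), crop, adult carcass (130), adult hindgut (129) and heart (108). Against the whole fly it was called higher in 7 groups, with log2 folds of 2.28 ± 0.13 in accessory gland, 1.96 ± 0.12 in mated spermatheca, 1.90 ± 0.15 in salivary gland, 1.90 ± 0.13 in ejaculatory duct, 1.55 ± 0.097 in S2 cells, 1.52 ± 0.11 in virgin spermatheca and 1.20 ± 0.093 in ovary (SE). The adjusted p-values were 2.1e-06 or less. Both doubtful arrays bore on ZnT86D, which read 33.0, 13.7, 47.2 and 358 in thoracic muscle and 408, 12.7, 298 and 310 in redone spermatheca. The muscle arrays other than the doubtful one at 358 all lay below the eye mean. Without them thoracic muscle was lower than the whole fly (log2 fold -2.07, adjusted p = 0.00023), against an uncalled -1.26 with all arrays, and redone spermatheca higher (1.08, adjusted p = 0.00017), against 0.10.

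ZnT49B, to which no role is assigned here, was bright in adult ganglion, brain and thoracic muscle. Ganglion had 502, 501, 502 and 517, above all 4 brain arrays at 407, 393, 434 and 478. Thoracic muscle had 445, 593, 429 and 169, the lowest being the array that resembled spermatheca. Of the other 3 muscle arrays 1 exceeded every ganglion array, so muscle and nervous tissue have no settled order here. Virgin spermatheca (331 ± 10.1), eye (317 ± 26.7), mated spermatheca (309 ± 41.6), crop (282 ± 13.6), ovary (281 ± 1.52) and head (270 ± 19.7) followed, and a gap separated them from the rest.

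The remaining 25 ZnT49B groups overlapped pair by pair. They lay between 227 in wing and 104 in wandering fat body, with redone spermatheca at 211, the carcasses at 210 (larval) and 209 (adult), ejaculatory duct at 205, wandering tubule at 190 and the whole fly at 187 ± 18.8. The redone spermatheca mean counts the doubtful array at 391, beside 139 to 164 in the others. Heart, larval trachea, both hindguts, adult trachea, larval CNS, adult fat body, S2 cells and feeding tubule held 161 to 195. Adult midgut (145), larval midgut (139), the salivary glands, testis (120), accessory gland (117), the whole larva (117 ± 7.62) and larval fat body (115) were the dimmest beside wandering fat body. Against the whole fly ZnT49B was higher in ganglion (log2 fold 1.39 ± 0.094, SE, adjusted p = 2.0e-07) and brain (1.15 ± 0.10, adjusted p = 1.2e-06). In thoracic muscle it was 0.96 with all arrays and 1.33 (adjusted p = 0.00017) without the doubtful one.

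Larval tubule was set against the whole larva and the rest of the larval gut and fat body. In feeding larvae 3 of the 7 genes were higher in tubule than in the whole larva and 0 were lower, where 9.30% and 23.9% of all probe sets tested were called. ZnT35C had 1708, 1985, 2073 and 1753 in tubule, against 79.0, 74.1, 75.7 and 77.9 in the whole larva, a log2 fold of 4.44 ± 0.087 (SE, adjusted p = 2.3e-11). ZnT77C had 656, 685, 702 and 535 in tubule, against 95.4, 73.7, 82.7 and 76.9 in the whole larva, a log2 fold of 2.83 ± 0.11 (SE, adjusted p = 4.0e-09). ZnT63C had 370, 431, 462 and 411 in tubule, against 83.7, 92.0, 83.5 and 84.6 in the whole larva, a log2 fold of 2.16 ± 0.088 (SE, adjusted p = 5.1e-09). No tubule array of these genes overlapped a whole larva array, and the share of all probe sets so separated was not counted. ZnT41F, with 147, 128, 155 and 178 in tubule, against 72.0, 69.2, 71.4 and 70.1 in the whole larva, lay just short of 2-fold at 1.00 ± 0.10 (adjusted p = 6.3e-06), and passed it under quantile normalization (1.30) and with a 2.00 pseudocount (1.08). It also passed when feeding tubule replicate 1 or 2 or whole larva replicate 1 or 3 was left out. ZnT86D, ZnT49B and ZnT33D had log2 folds of 0.95, 0.43 and -0.27. The median of the 7 was 1.00, against -0.05 over all probe sets tested.

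The same 3 genes separated tubule from gut and fat body. Over 6 pairs of tubule, gut and fat body the 42 member tests gave 14 higher and 2 lower calls, beside 9.84% and 14.3% of all tests. ZnT35C was higher in feeding tubule than in midgut by a log2 fold of 6.75 ± 0.12, than in hindgut by 6.31 ± 0.099, and than in fat body by 6.28 ± 0.41, or 6.74 ± 0.14 without the fat body array rich in testis markers (SE). With a 40.0 pseudocount these were 5.33, 5.15 and 5.08. ZnT77C was higher in tubule by 1.74 over midgut, 2.00 over hindgut and 3.64 over fat body, and ZnT63C by 1.62, 1.5 and 2.77. Adjusted p-values of these 9 calls were 2.5e-06 or less. Without the same fat body array, the ZnT77C and ZnT63C values over fat body were 3.54 and 2.74. In wandering larvae tubule again exceeded fat body in ZnT35C (5.21 ± 0.38), ZnT77C (3.61 ± 0.17) and ZnT63C (3.19 ± 0.12), while ZnT33D was lower in tubule (-1.63 ± 0.31, adjusted p = 0.0020). Its tubule mean did not reach the 40th percentile. The ZnT33D call, which rests on the fat body arrays that carry testis markers, was -1.33 without the second of them and ended, at -0.77, with a 40.0 pseudocount.

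**Figure D3:**
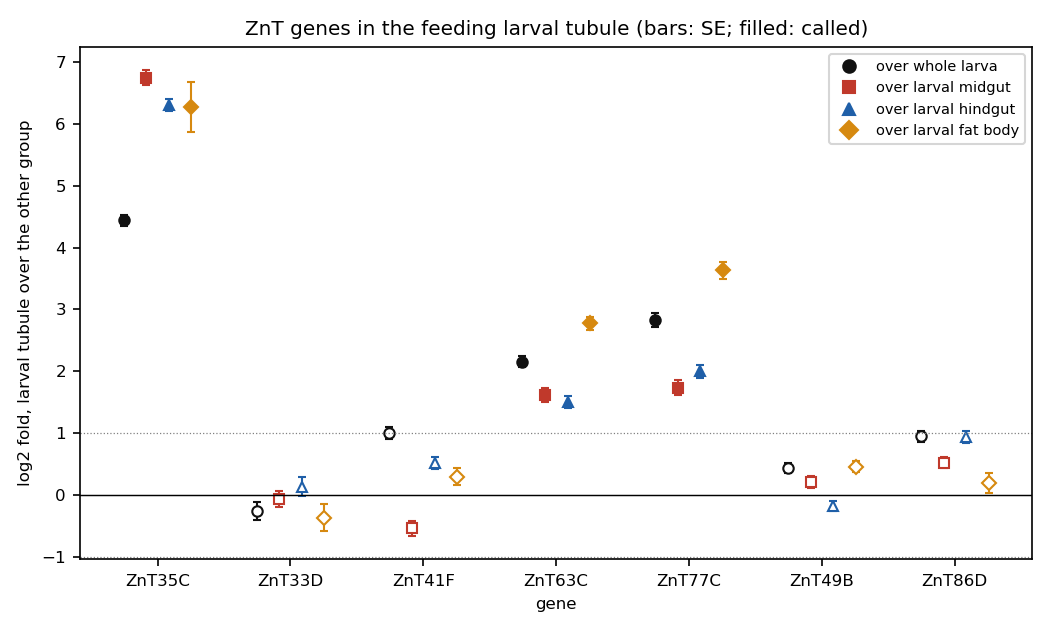
Log2 fold of each ZnT gene in feeding larval tubule over the whole larva, larval midgut, larval hindgut and larval fat body (bars: SE; 4 arrays a group). Filled symbols are called, and the dotted lines mark 2-fold; ZnT35C, ZnT77C and ZnT63C are called in all 4 comparisons and no other gene in any.

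Within the gut, ZnT41F was higher in midgut, and ZnT35C in adult hindgut. ZnT41F was higher in midgut than in hindgut in adults, at 353, 340, 331 and 334, against 121, 126, 111 and 112 (log2 fold 1.46 ± 0.068, SE, adjusted p = 5.7e-08). In feeding larvae it was 190, 243, 245 and 224 in midgut, against 104, 103, 104 and 99.8 in hindgut (1.06 ± 0.10, adjusted p = 1.1e-05, uncalled at 0.89 with a 40.0 pseudocount). ZnT35C was lower in adult midgut than in adult hindgut, where it was 38.0, 71.9, 78.9 and 47.0 (-1.83 ± 0.27, adjusted p = 0.00029, uncalled at -0.98 with a 40.0 pseudocount). The midgut arrays were cleanly separated by their markers, since 5 midgut genes summed to 28342 to 30245 in adult midgut and 2133 to 2647 in adult hindgut. Of the tubule markers Lkr, Oatp58Db, NaPi-T and Irk2, summed at 4307 to 4852 in adult hindgut, Irk2 alone averaged 4564 there.

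Wandering larvae were compared with feeding larvae in tubule and fat body. An array of tubule pooled 30 wandering or 50 feeding larvae, so stage and pool size cannot be told apart there. In both tissues the wandering and feeding arrays also stand in separate blocks of the series, so stage and block cannot be told apart. No member was called in either tissue, 0 of 14 tests, where 3.74% of all tests were called higher and 4.18% lower. In limma, 7 of the 14 had an unadjusted p below 0.05, 4 of them in tubule, and 5 an adjusted p below 0.05, again 4 in tubule, with changes under 2-fold. The share of all probe sets below either p without a minimum fold was not counted, so these numbers have no background beside them. A single fit of all 34 groups called 1, ZnT35C in fat body. For tubule alone the background was 3.54% higher and 3.68% lower. ZnT63C was 829, 770, 865 and 753 in wandering tubule, against 370, 431, 462 and 411 in feeding tubule, with no overlap and a log2 fold of 0.93 ± 0.091 (SE, adjusted p = 5.6e-05). ZnT77C was 377, 393, 473 and 368 in wandering tubule, against 656, 685, 702 and 535 in feeding tubule (-0.66 ± 0.12, adjusted p = 0.0016). ZnT86D was 311, 325, 325 and 323 in wandering tubule, against 498, 499, 475 and 446 in feeding tubule (-0.56 ± 0.072, adjusted p = 0.00027). All 3 had groups that did not overlap, and the share of all probe sets so separated was not counted. Among the alternatives the limma adjusted p of ZnT86D rose as high as 0.25. The remaining log2 folds were 0.23 for ZnT49B (adjusted p = 0.044), 0.06 for ZnT35C (adjusted p = 0.72), -0.04 for ZnT41F and -0.26 for ZnT33D.

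In fat body the log2 folds of wandering over feeding larvae were 1.12 ± 0.55 for ZnT35C (adjusted p = 0.17) and 0.99 ± 0.34 for ZnT33D (adjusted p = 0.081; SE). ZnT33D was 20.6, 75.2, 31.4 and 28.5 in wandering, against 15.7, 8.86, 7.06 and 21.9 in feeding fat body. The highest feeding array, the fourth, was again the one with testis markers at 598, and it overlapped the lowest wandering one. Without that array ZnT35C (1.58, adjusted p = 0.035) and ZnT33D (1.16, adjusted p = 0.046) were both called higher. Without the second wandering array, where testis markers summed to 1837, they were 0.73 (adjusted p = 0.34) and 0.69 (adjusted p = 0.11). ZnT63C was 0.51 (adjusted p = 0.033) and ZnT77C -0.64 (adjusted p = 0.051).

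The difference of the wandering effect between tubule and fat body, tested by an interaction term, passed an adjusted p of 0.05 in 1 of 7 genes, against 14.3% of all probe sets tested. That gene was ZnT33D, at -1.26 ± 0.39 log2 units (tubule effect less fat body effect, SE, adjusted p = 0.044), and the adjusted p was 0.061 with a replicate block. The call was lost in 12 of the 16 fits that left out 1 array.

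**Figure D4:**
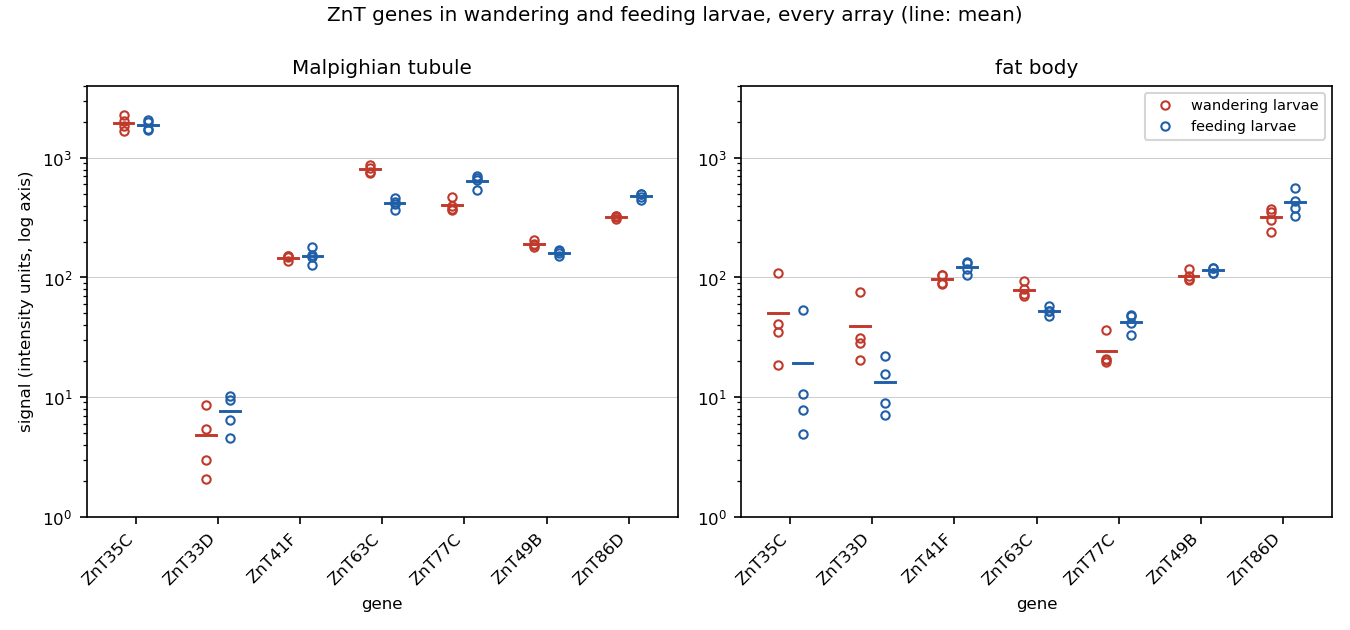
Signal (intensity units, log axis) of each ZnT gene in wandering (red) and feeding (blue) larvae, in tubule (left) and fat body (right); circles are arrays, 4 a group, and lines are means. In tubule the arrays of ZnT63C, ZnT77C and ZnT86D do not overlap, and in fat body ZnT35C and ZnT33D spread most.

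Feeding larva was set against adult in 9 comparisons, fold changes being larva over adult. Of 61 tests, 7 were called higher and 5 lower in larvae, beside 10.6% and 12.8% of all tests, and 2 of the 63 possible ones were left out because ZnT33D was dim in both groups. ZnT77C accounted for 4 of the 7 higher calls. In midgut it was 179, 176, 175 and 214 in larvae, against 56.5, 52.0, 53.3 and 60.2 in adults (log2 fold 1.58 ± 0.098, SE, adjusted p = 1.4e-06). In hindgut it was 166, 147, 156 and 145 in larvae, against 61.8, 50.8, 65.6 and 60.2 in adults (1.23 ± 0.089, adjusted p = 2.6e-06, uncalled at 0.96 with a 40.0 pseudocount). Larval CNS had 211, 190, 170 and 189, against 27.1, 28.4, 22 and 19.8 in adult brain (2.55 ± 0.10, adjusted p = 8.0e-09) and 33.5, 37.7, 32.9 and 42 in adult ganglion (2.10 ± 0.092, adjusted p = 3.5e-08). No larval array overlapped an adult one in these 4 comparisons, and the share of all probe sets so separated was not counted. In whole animals the log2 fold of ZnT77C was 0.87, uncalled, and 1.69, called, under quantile normalization.

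ZnT49B went the other way in the nervous system, at 171, 174, 184 and 181 in larval CNS, against 407, 393, 434 and 478 in brain and 502, 501, 502 and 517 in ganglion. It was lower by log2 folds of -1.22 ± 0.077 and -1.46 ± 0.061 (SE, adjusted p = 2.0e-07 and 2.6e-08). ZnT63C was called in 1 of the 9 comparisons, salivary gland, at 614, 705, 677 and 847 in larvae, against 124, 150, 111 and 153 in adults (2.32 ± 0.15, adjusted p = 1.7e-06). ZnT35C was lower in the whole larva than in the whole fly (-1.32 ± 0.15, adjusted p = 1.4e-05), in hindgut (-1.49 ± 0.19, adjusted p = 0.00011) and in carcass (-1.07 ± 0.18, adjusted p = 0.00072). The hindgut call ended at -0.86 with a 40.0 pseudocount, and the carcass call at -0.51 with it and at -0.90 under quantile normalization. The carcass call also ended, between -0.97 and -0.99, when adult carcass replicate 2, larval carcass replicate 1 or larval carcass replicate 3 was left out. ZnT86D was higher in carcass, with 529, 338, 399 and 481 in larvae, against 126, 120, 143 and 131 in adults (1.66 ± 0.15, adjusted p = 8.9e-06), and in CNS over brain (1.04 ± 0.087, adjusted p = 1.6e-06, uncalled at 0.99 under quantile normalization). The larval and adult carcass are dissected differently, and the CNS has no single adult counterpart.

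By an interaction term at an adjusted p below 0.05, midgut and hindgut differed in their stage effect in 4 of 7 genes, against 39.7% of all probe sets tested. The difference, midgut less hindgut, was 1.38 ± 0.31 for ZnT35C (adjusted p = 0.0022), -0.40 ± 0.12 for ZnT41F (adjusted p = 0.012), 0.34 ± 0.13 for ZnT77C (adjusted p = 0.043) and -0.54 ± 0.18 for ZnT86D (adjusted p = 0.023). The midgut means of ZnT35C lay below the pseudocount at both stages, so a stage effect in midgut could hardly show for that gene.

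**Figure D5:**
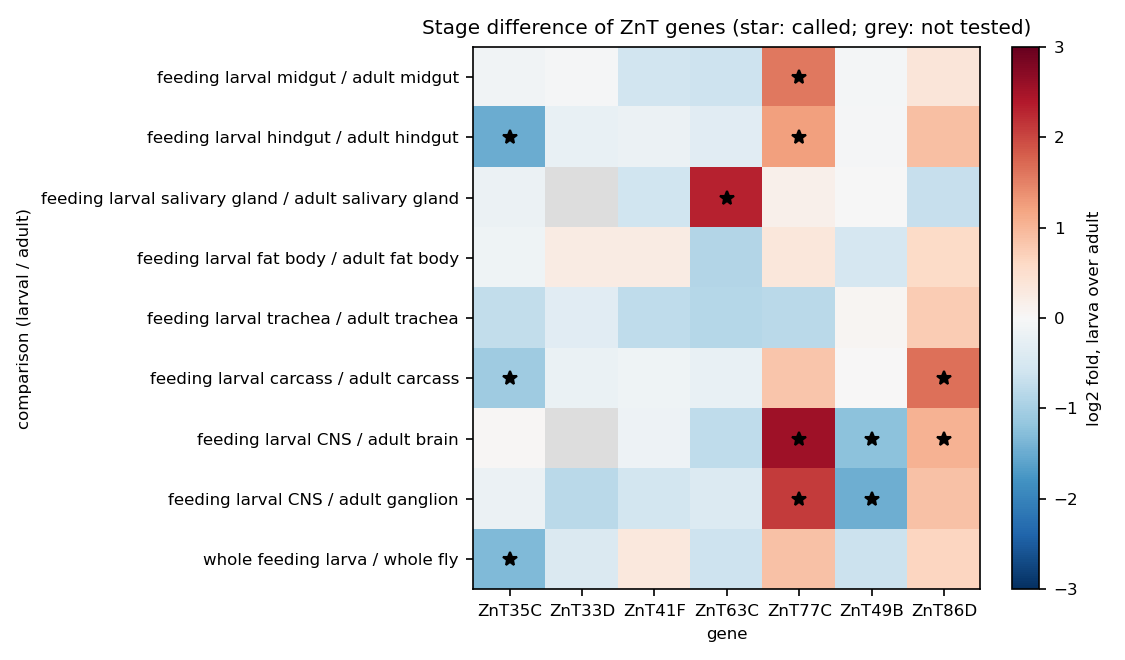
Log2 fold of feeding larva over adult for each ZnT gene (columns) in 9 comparisons (rows); red is higher in larvae, blue lower, grey not tested, and stars mark called changes. ZnT77C has 4 stars, all red, in gut and nervous system, and ZnT49B has 2, both blue, in the nervous system.

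Gonads and spermatheca gave 1 higher and 3 lower calls in 20 tests, beside 8.69% and 12.4% of all tests, and all 4 were between testis and ovary. Testis against ovary alone called 3095 of 13228 probe sets higher and 4398 lower. Mated against virgin spermatheca called 32 of 11719 higher and 57 lower, and redone against first mated spermatheca 145 of 12705 higher and 220 lower. ZnT33D was 154, 141, 146 and 148 in testis, against 0.90, 5.96, 4.37 and 0.74 in ovary, a log2 fold of 3.62 ± 0.13 (SE, adjusted p = 6.0e-10) that was 2.12 with a 40.0 pseudocount and 5.06 with 2.00. Its ovary mean did not reach the 40th percentile, so it was tested through its testis level. ZnT86D was 83.8, 80.5, 73.1 and 94.8 in testis, against 365, 340, 385 and 368 in ovary (-2.01 ± 0.082, adjusted p = 1.9e-09). ZnT49B was 119, 119, 127 and 115 in testis, against 281, 283, 282 and 279 in ovary (-1.17 ± 0.058, adjusted p = 1.0e-08, uncalled at -0.75 under quantile normalization). ZnT77C was 21.9, 20.7, 17.4 and 20.2 in testis, against 57.6, 48.7, 56.1 and 50.3 in ovary (-1.07 ± 0.076, adjusted p = 2.1e-07, uncalled at -0.63 with a 40.0 pseudocount). In each of these 4 genes the testis and ovary arrays did not overlap, and the share of all probe sets so separated was not counted. ZnT35C, bright in both gonads, had an uncalled log2 fold of 0.77. Mated against virgin spermatheca called no member, ZnT86D having the smallest adjusted p, 0.057, at a log2 fold of 0.44. Redone against first mated spermatheca called none either. ZnT86D was -1.86 there with all arrays, and -0.87 without the 2 doubtful arrays.

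Other zinc genes were counted over the same tubule comparisons. Of 9 importers of the Zip family tested in feeding tubule, 4 were higher than in the whole larva and 0 lower, beside 9.30% and 23.9% of all probe sets tested. The largest was Zip71B, the zinc uptake transporter of the tubule, at 2343 ± 126 in tubule and 71.2 ± 4.87 in the whole larva (SD, n = 4 each; log2 fold 4.86, adjusted p = 8.9e-12). Zip48C (3.12) and Zip88E (2.09) followed, and Zip89B (1.05) was the fourth. Of 5 metal response genes, which are the transcription factor MTF-1 and the metallothioneins MtnA to MtnD that bind metal in the cytosol, 0 were higher and 3 lower, namely MtnB (-6.91), MtnD (-1.64) and MtnC (-1.18). The tubule mean of MtnB was below the percentile required for testing, so MtnB was tested through its whole larva level. Of 7 genes of pigment and zinc storage granules 2 were higher, the ABC transporters st (4.18) and bw (4.07), and 0 lower.

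Between wandering and feeding tubule the importers had 1 higher and 0 lower of 9, beside 3.54% and 3.68% of all probe sets tested. The 1 was Zip102B (log2 fold 2.62, adjusted p = 4.6e-05). The metal response list had 2 higher and 0 lower of 5, MtnB (1.76, adjusted p = 0.034) and MtnD (1.67, adjusted p = 0.00080). In feeding tubule the MtnB mean was below the percentile required for testing, so MtnB was tested through its wandering tubule level. The granule list had bw higher (2.31, adjusted p = 2.5e-05) and st lower (-2.44, adjusted p = 1.0e-05) of 7. The ZnT median was -0.04 in this comparison and the importer median 0.46, against 0.08 over all probe sets tested.

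Within the family, Pearson's r of the group means over the 34 groups ranged from -0.46 for ZnT49B and ZnT86D to 0.44 for ZnT63C and ZnT77C, the only 1 of 21 pairs above 0.4. These and the following correlations are descriptions over groups that share whole animals and neighbouring tissues. The 5 genes most like ZnT33D (CG43136, CG32461, Crtp, CG14731 and CG5265, r = 0.94 to 0.95) were all highest in testis. Those most like ZnT35C (CG31272, the organic anion transporter Oatp58Db, CG33281, CG30016 and CG2187, r = 0.78 to 0.79) were all highest in larval tubule, and Oatp58Db is itself one of the tubule markers. For both members the shared highest group follows largely from choosing genes by r with a profile that peaks there. ZnT86D was most like ERp60 (r = 0.88), MFS16, OstDelta, Ostgamma and Sec13 (0.84), of which ERp60 is a protein disulfide isomerase of the endoplasmic reticulum and OstDelta and Ostgamma are subunits of the oligosaccharyltransferase there.

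Of the other members, ZnT49B was nearest UBL3 (r = 0.84), Nmnat, Lon, prd1 and Rbpn-5 (0.75), and ZnT41F nearest Mec2 (0.84), p38c, HP1D3csd, CG9663 and Alp12 (0.79). ZnT77C was nearest CG9702 (0.68), Spn42De, CG14879, Itgbn and cert (0.62), and ZnT63C nearest CHKov2 (0.64), c11.1, CG2915, CG32638 and Clc (0.60). By Spearman's rho 0 of the 5 genes named for ZnT33D and 0 of those for ZnT35C stayed among the 5 most alike, against 3 for ZnT41F and ZnT63C, 2 for ZnT77C and ZnT86D, and 1 for ZnT49B. Without the whole animals, head and S2 cells, 5 stayed for ZnT35C, 4 each for ZnT33D, ZnT49B, ZnT77C and ZnT86D, 3 for ZnT63C and 1 for ZnT41F.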

How the data were processed

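For each probe set and array the deposited table gave 1 intensity, not log-transformed, which the authors had scaled to 1 trimmed mean. The software, background correction and summary method are not given in the sources used here, and no build is named, so no coordinates are given. After leaving out 183 control probe sets, 18769 were analysed, named through the platform annotation: 13647 had 1 symbol, 402 several and 4720 were not listed. Arrays were brought to the trimmed mean 100.004 and tested as log2(signal + 10) in limma 3.58.1 (R 4.3.3), with 2 groups per fit and Benjamini-Hochberg adjustment over all probe sets tested. The test was tried on simulated data. Array number limits the precision. Members were named by symbol, the most alike genes as the 5 highest Pearson r, and genes of other lists as up to 3 called each way with the largest change. Members and lists were chosen with earlier results of these data known. Replicate numbers did not pair the arrays: every pair exceeded r = 0.1 in 0 of 50 comparisons. Alternatives were quantile normalization, values as deposited, other pseudocounts and filters, a replicate block, 1 fit of all groups, no minimum fold, and leaving out arrays. The genes w, ltd and MtnE are not analysed here.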

Additional observations from a re-analysis of the deposited data

Results flagged for a closer look

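In 16 of 220 sets of 4 arrays examined, 1 array stood apart from the other 3, and chance alone flags about 1 in 20 such sets. ZnT33D was 5.66 in larval midgut replicate 4 (others 9.07 to 9.35) and 3.31 in ejaculatory duct replicate 1 (others 12.7 to 14.4). ZnT35C was 32.2 in adult fat body replicate 3 (others 12.2 to 13.6) and 57.1 in adult trachea replicate 1 (others 10.4 to 14.2). ZnT41F was 138 in wandering tubule replicate 2 (others 149 to 150.3) and 31.2 in larval CNS replicate 2 (others 25.3 to 25.6). ZnT49B was 517 in ganglion replicate 4 (others 501 to 502) and 391 in redone spermatheca replicate 2 (others 139 to 164). ZnT63C was 102 in ganglion replicate 2 (others 126 to 131) and 92.0 in whole larva replicate 2 (others 83.5 to 84.6).

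ZnT77C was 36.1 in wandering fat body replicate 1 (others 19.6 to 20.6), 47.4 in whole fly replicate 1 (others 37.5 to 38.4) and 214 in larval midgut replicate 4 (others 175 to 179). ZnT86D was 311 in wandering tubule replicate 1 (others 323 to 325), 146 in larval CNS replicate 2 (others 165 to 169) and 12.7 in redone spermatheca replicate 2 (others 298 to 408). The redone spermatheca array of ZnT49B and ZnT86D is the one that resembles thoracic muscle.

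In 5 cases an effect differed between tissues by an interaction term. Of all probe sets tested, 14.3% passed that threshold for the wandering effect and 39.7% for the stage effect. The wandering effect of ZnT33D, tubule less fat body, was -1.26 log2 units, a call lost in most fits that left out 1 array. The stage effect, midgut less hindgut, was 1.38 for ZnT35C, which was dim in midgut at both stages, -0.40 for ZnT41F, 0.34 for ZnT77C and -0.54 for ZnT86D.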

How the results depend on the processing

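No called fold change reversed under any alternative run, while some uncalled ones near 0 changed sign. Of 94 called folds, 74 kept their call throughout, 10 lost it under quantile normalization, 19 with the 40.0 pseudocount and 3 when single arrays were left out. With no minimum fold, calls were 109 against the whole fly, 43 against the whole larva, 38 by stage, 5 for wandering and 29 in tubule and gut pairs, against 44, 18, 12, 0 and 16 with it. Shares of all probe sets called with no minimum fold were not counted, so the rise cannot be set against a background. Against the whole fly quantile normalization gave 67 and leaving out single arrays 43 to 48. Leaving out single arrays gave 18 to 19 calls against the whole larva, 11 to 13 by stage, 16 to 17 in tubule and gut pairs, 4 to 4 in reproductive pairs and 0 to 2 for wandering, the 2 without larval fat body replicate 4. Wandering gave 1 call in 1 fit of all groups. The wandering interaction, 1 gene, gave 0 with quantile normalization, no filter or a replicate block, 2 with the 40.0 pseudocount or 1 fit, 3 with the 60th percentile filter and 0 to 2 without single arrays. The stage interaction, 4 genes, gave 2 with quantile normalization, 1 with 1 fit and 2 to 4 without single arrays, the 2 without adult hindgut replicate 4 or larval hindgut replicate 2. With the replicate block counts elsewhere were 44, 18, 12, 0, 16 and 4, unchanged. Signals under the 40th percentile carry little information, ZnT33D above all, and 49 called folds moved over 1.5-fold under some alternative, 44 with the 40.0 pseudocount. With 1 probe set a gene, probe failure and absence of a transcript cannot be told apart.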
